A study of Mus musculus with 6 samples.

Results

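The expression of 10 macrophage genes was examined in mouse kidneys that lacked transferrin receptor 1 in the nephron lineage. The genes were Cd68, Csf1r, Adgre1, Cd14, Mrc1, Lyz2, Ctss, Tyrobp, Aif1 and Cx3cr1, which are 10 of the 24422 genes counted. They were chosen by name as surface, lysosomal and signaling genes of macrophages, with earlier results of these data known. All 10 were counted in every library, and all 10 received an adjusted p.

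Poly-A RNA of whole kidneys was sequenced at postnatal day 13, with 3 libraries per group. The Control kidneys carried the wild type genotype. The TfR1 knockout kidneys carried the genotype Tfr1f/f;SixCre, in which exons 3 and 4 of the transferrin receptor gene are floxed and the Six2Cre recombinase is active in the progenitors of the nephron tubules. Per the study, some TfR1+ cells escaped deletion. Both groups were C57BL/6 mice on an iron sufficient diet with 220 ppm iron.

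Macrophages are phagocytes that reside in the kidney from fetal life and are joined by cells derived from blood monocytes. They depend on signals through the CSF1 receptor, take up dying cells and particles through surface receptors, and degrade this material in lysosomes. Many of their receptors signal through adaptor proteins such as TYROBP, which carry a tyrosine-based activation motif. None of the 10 genes is expressed by macrophages alone: Lyz2 and Cd14 are also expressed in neutrophils and monocytes, and Cd14 can be expressed in tubular epithelium.

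The libraries held 16591156 to 22898008 counted reads. Control replicate 3 differed more from Control replicates 1 and 2 than these did from each other, and it had the lowest summed count of the 12 kidney epithelial markers in its group. The targeted gene Tfrc did not check the labels, since its normalized counts overlapped between groups (DESeq2 log2 fold change 0.11, adjusted p 0.853) and reads in the deleted exons were not analysed here. The 3 libraries of a group are biological replicates according to the series. With 3 libraries per group the precision was limited, and the parts of depth and of the spread between kidneys were not separated.

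Sequences are shown first for the genes whose sequence bears on their counts or on what they share. Lyz2 (mm9 chr10:116714390-116719377, minus strand) has a near copy, Lyz1, beside it on the same strand (chr10:116724852-116729924). Both encode lysozyme, the enzyme that cleaves bacterial cell walls. The first 150 of their 447 coding bases are given, from the mm9 GENCODE transcripts, with capitals at the letters that differ.
Lyz2: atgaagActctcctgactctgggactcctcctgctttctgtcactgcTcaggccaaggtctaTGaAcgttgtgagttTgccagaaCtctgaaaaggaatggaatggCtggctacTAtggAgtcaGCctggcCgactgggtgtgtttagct
Lyz1: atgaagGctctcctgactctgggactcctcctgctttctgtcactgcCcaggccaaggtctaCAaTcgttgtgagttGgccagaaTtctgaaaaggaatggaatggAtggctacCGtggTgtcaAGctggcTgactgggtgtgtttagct
The coding sequences differed at 22 positions (95.1% identity), 14 of them in the stretch above, and their longest identical run was 118 bases. Of the 100-base stretches of the Lyz2 transcripts, the length of the reads, 24 (1.98%) were also found in Lyz1. No 100-base stretch of the other 9 genes was found in another gene's protein-coding transcripts. Other transcripts and the reverse strand were not searched.

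The 250 bases upstream of the start were taken from RefSeq (GRCm38.p6), in which 6 of the 10 genes were found. For Ctss, Mrc1 and Lyz2 the bases after this start were found in a GENCODE transcript of the gene, and for Cd68, Cx3cr1 and Aif1 they were not. They are shown for Ctss and Cd68, which rose in the knockout kidneys, and for Mrc1 and Cx3cr1, which did not pass the test. Capitals mark the core sequence bound by PU.1, the factor encoded by Spi1 that is required for the macrophage lineage. It was searched for as GAGGAA on either strand, which reads TTCCTC on the reverse strand.
Ctss (GRCm38 chr3:95526536-95526785, plus strand): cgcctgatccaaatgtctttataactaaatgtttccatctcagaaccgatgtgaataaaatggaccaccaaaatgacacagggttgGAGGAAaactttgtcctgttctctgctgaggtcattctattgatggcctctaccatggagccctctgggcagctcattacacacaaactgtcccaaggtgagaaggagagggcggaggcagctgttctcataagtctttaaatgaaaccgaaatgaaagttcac
Cd68 (GRCm38 chr11:69666171-69666420, minus strand): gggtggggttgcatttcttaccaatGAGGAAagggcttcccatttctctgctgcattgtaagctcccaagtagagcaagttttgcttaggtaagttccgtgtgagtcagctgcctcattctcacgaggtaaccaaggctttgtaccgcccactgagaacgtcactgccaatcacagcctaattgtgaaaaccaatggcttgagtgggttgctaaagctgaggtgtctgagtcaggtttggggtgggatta
Mrc1 (GRCm38 chr2:14229164-14229413, plus strand): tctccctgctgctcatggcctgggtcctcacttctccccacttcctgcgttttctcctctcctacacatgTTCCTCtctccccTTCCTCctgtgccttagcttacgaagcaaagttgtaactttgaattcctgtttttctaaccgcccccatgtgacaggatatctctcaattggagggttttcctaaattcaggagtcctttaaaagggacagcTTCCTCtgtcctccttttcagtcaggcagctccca
Cx3cr1 (GRCm38 chr9:120068297-120068546, minus strand): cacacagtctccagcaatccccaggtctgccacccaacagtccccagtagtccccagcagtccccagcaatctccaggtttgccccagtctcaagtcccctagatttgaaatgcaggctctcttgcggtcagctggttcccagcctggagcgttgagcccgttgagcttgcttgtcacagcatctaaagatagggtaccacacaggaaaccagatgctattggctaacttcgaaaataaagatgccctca
The motif was present in 4 of the 6 promoters (Ctss, Cd68, Mrc1 and Aif1) and in 23.3% of the 32851 promoters in the table. Mrc1 held 3 copies and the others 1 each, and none was present in Cx3cr1 or Lyz2. Of the 4 promoters with a copy, those of Ctss and Cd68 belonged to genes that rose and those of Mrc1 and Aif1 to genes that did not pass. These are matches of letters, and binding was not measured.

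Of the 10 macrophage genes, 5 were higher in the knockout kidneys (DESeq2 adjusted p under 0.05) and 0 were lower. Of all 16509 genes tested, 7.74% were higher and 7.18% were lower by the same call. Both the 10 genes and the lists below were chosen with earlier results known, so such shares describe the genes and are no test. All 5 rose by at least 2-fold, which 4.41% of all genes tested did. The 5 were Lyz2, Ctss, Cd68, Cd14 and Tyrobp, and the normalized counts of these 5 did not overlap between groups, as for 16.9% of all genes tested in that direction. By edgeR's quasi-likelihood test 4 of the 10 were higher, against 3.22% of all genes it tested (2.48% by at least 2-fold), and Tyrobp was not among them. At an unadjusted p under 0.05, 6 were higher and 0 lower by DESeq2 (13.8% and 13.5% of all genes tested), and 5 were higher and 0 lower by edgeR (12.8% and 13.0%). The median log2 fold change of the 10 genes was 1.07, beside 0.0071 over all genes tested. In whole-kidney RNA, more cells of a type and more RNA per cell cannot be told apart.

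**Figure D1:**
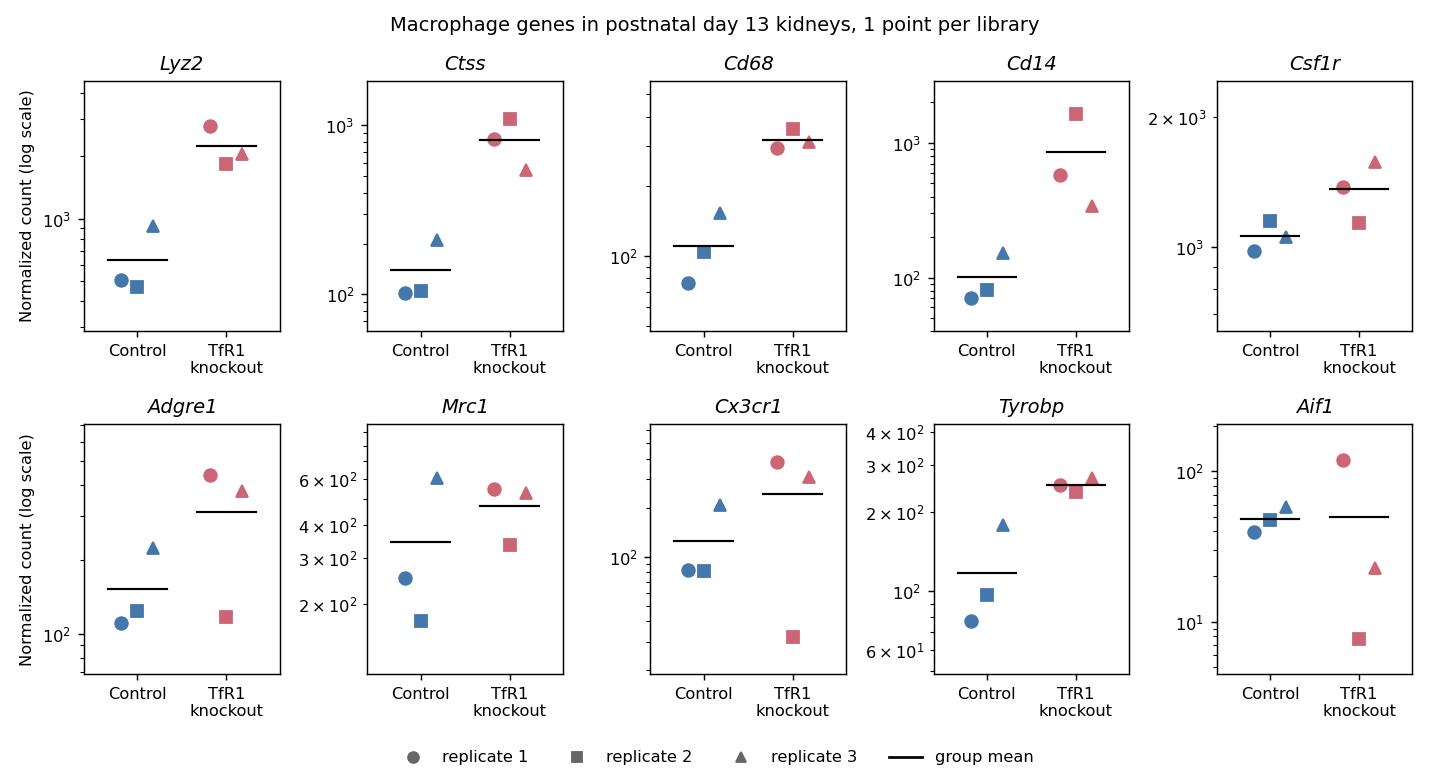
Normalized count (log axis, scale set per panel) of each macrophage gene in the 3 Control and 3 TfR1 knockout libraries, 1 point per library, marker shape for the replicate number and a line at the group mean. For Lyz2, Ctss, Cd68, Cd14 and Tyrobp every knockout point lies above every Control point, and for Adgre1, Cx3cr1 and Aif1 knockout replicate 2 lies far below knockout replicate 1.

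The lysosomal genes rose together. Lyz2 had 508, 472 and 916 normalized counts in the 3 Control kidneys, in the order of their replicate numbers, which is kept below. It had 2791, 1826 and 2044 normalized counts in the TfR1 knockout kidneys. The lowest knockout kidney held more than the highest Control kidney, which was replicate 3. Lyz2 rose 3.52-fold (log2 fold change 1.81, SE 0.31, DESeq2 adjusted p 4.89e-07, edgeR adjusted p 0.0192). Its near copy Lyz1, which is no member of the 10, had 84.1, 123 and 169 normalized counts in Control kidneys and 481, 352 and 353 in knockout kidneys. Lyz1 also rose without overlap (log2 fold change 1.66, SE 0.31, DESeq2 adjusted p 5.07e-06). Only uniquely aligned reads were counted, so reads from the stretches that the pair shares are in neither count.

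Ctss (mm9 chr3:95330708-95360325, plus strand) encodes cathepsin S, a cysteine protease that processes the invariant chain of MHC class II. It had 102, 105 and 209 normalized counts in Control kidneys and 836, 1085 and 542 in knockout kidneys. Every knockout kidney exceeded every Control kidney, with replicate 2 the highest. Ctss rose 5.94-fold (log2 fold change 2.57, SE 0.37, DESeq2 adjusted p 7.53e-10, edgeR adjusted p 0.0131), the smallest adjusted p of the 10 genes by either test.

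Cd68 (mm9 chr11:69477715-69479655, minus strand) encodes a heavily glycosylated protein of the lysosomal membrane that is widely used as a macrophage marker. Its normalized counts were 76.7, 104 and 153 in Control kidneys and 292, 352 and 310.3 in knockout kidneys. The knockout kidneys lay close together and clear of all Control kidneys. Cd68 rose 2.87-fold (log2 fold change 1.52, SE 0.30, DESeq2 adjusted p 1.74e-05, edgeR adjusted p 0.028). Lyz2, Ctss and Cd68 passed the test by DESeq2 whichever library was left out.

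Among the 5 surface receptors, Cd14 alone passed the test. Cd14 (mm9 chr18:36884728-36886390, minus strand) encodes the co-receptor that hands bacterial lipopolysaccharide to Toll-like receptor 4. Its normalized counts were 70.1, 80.9 and 152 in Control kidneys and 583, 1644 and 339 in knockout kidneys. All knockout kidneys were above all Control kidneys, but they differed widely among themselves, with replicate 2 far above the others. Cd14 rose 8.48-fold (log2 fold change 3.08, SE 0.55, DESeq2 adjusted p 1.04e-06, edgeR adjusted p 0.0342), and without knockout replicate 2 the log2 fold change was 2.20 and still passed. By limma-voom it missed the threshold (log2 fold change 2.80, adjusted p 0.0642).

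Csf1r (mm9 chr18:61265226-61291803, plus strand) encodes the receptor for CSF1 and IL-34, on which macrophages depend for survival. It had 983, 1153 and 1055 normalized counts in Control kidneys and 1382, 1139.9 and 1581 in knockout kidneys. Knockout replicate 2 lay within the Control range and the other two knockout kidneys above it. The change was small and did not pass (1.29-fold, log2 fold change 0.36, 95% interval -0.01 to 0.74, DESeq2 adjusted p 0.199). Exons of Csf1r overlap exons of Hmgxb3 on the opposite strand. The strand setting of the counting is not given in the sources used here, so reads of the pair there cannot be told apart if strand was not used.

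Adgre1 encodes F4/80, the classical surface antigen of mouse tissue macrophages (mm9 chr17:57498109-57622952, plus strand, listed there as Emr1). Its normalized counts were 110.5, 124 and 223 in Control kidneys and 439, 118 and 379 in knockout kidneys. Knockout replicates 1 and 3 exceeded every Control kidney, whereas replicate 2 lay among the Control kidneys. The difference did not pass (2.05-fold, log2 fold change 1.04, SE 0.49, DESeq2 adjusted p 0.146). Without knockout replicate 2 it passed (log2 fold change 1.43, DESeq2 adjusted p 0.00161).

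Cx3cr1 (mm9 chr9:119957811-119977400, minus strand) encodes the receptor for the chemokine CX3CL1 and marks resident macrophages and patrolling monocytes. It had 83.3, 81.8 and 208 normalized counts in Control kidneys and 386, 32.0 and 312 in knockout kidneys. The pattern was that of Adgre1 in a wider form, with knockout replicate 2 below every Control kidney and the other two above them. The difference did not pass (log2 fold change 0.97, SE 0.72, DESeq2 adjusted p 0.395), but without knockout replicate 2 it did (log2 fold change 1.5, DESeq2 adjusted p 0.0144).

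Mrc1 (mm9 chr2:14151041-14253684, plus strand) encodes CD206, the mannose receptor of tissue macrophages. Its normalized counts were 251, 172 and 605 in Control kidneys and 548, 334 and 528 in knockout kidneys. The highest value of all 6 libraries was that of Control replicate 3. The difference did not pass (log2 fold change 0.46, SE 0.46, DESeq2 adjusted p 0.552). Without Control replicate 3 it passed (log2 fold change 1.15, DESeq2 adjusted p 0.00551).

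Of the 2 genes of intracellular signaling, Tyrobp passed and Aif1 did not. Tyrobp (mm9 chr7:31198807-31202596, plus strand) encodes DAP12, the adaptor for TREM2 and related receptors. It had 77.5, 97.3 and 178 normalized counts in Control kidneys and 253, 237 and 269 in knockout kidneys. The knockout kidneys were nearly alike and all lay above Control replicate 3. Tyrobp rose 2.16-fold (log2 fold change 1.11, SE 0.35, DESeq2 adjusted p 0.0136), but it did not pass by edgeR (adjusted p 0.0932) or limma-voom (adjusted p 0.0568). With DESeq2 the call was lost without Control replicate 1 (log2 fold change 0.88, adjusted p 0.125), without Control replicate 2 (0.98, adjusted p 0.131) and without knockout replicate 3 (1.07, adjusted p 0.103).

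Aif1 (mm9 chr17:35307936-35313013, minus strand) encodes IBA1, a calcium-binding protein that bundles actin in macrophages and microglia. By normalized counts, which are not corrected for length, it was the lowest of the 10 genes. It had 39.6, 47.3 and 58.1 normalized counts in Control kidneys and 119, 7.68 and 22.7 in knockout kidneys. Knockout replicate 1 was above all Control kidneys and knockout replicates 2 and 3 were below all of them. No difference between the groups was detected (log2 fold change 0.05, 95% interval -1.55 to 1.65, DESeq2 adjusted p 0.979). Without knockout replicate 1, Aif1 passed as lower (log2 fold change -1.63, DESeq2 adjusted p 0.0407).

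**Figure D2:**
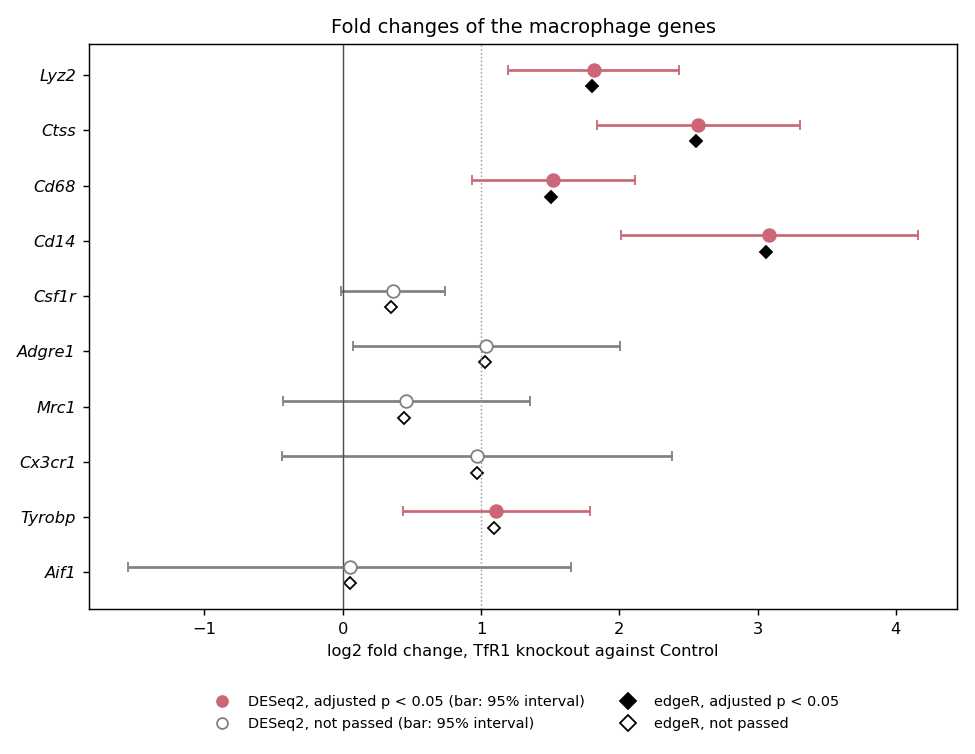
Log2 fold change of each macrophage gene in TfR1 knockout against Control kidneys, by DESeq2 (circles with 95% intervals) and by edgeR (diamonds), filled where the adjusted p was under 0.05; the dotted line marks 2-fold. DESeq2 passed Lyz2, Ctss, Cd68, Cd14 and Tyrobp, edgeR passed the first 4 of these, and the interval is widest for Aif1.

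The 10 genes differed in how they varied across libraries. Control replicate 3 was the highest Control kidney for 9 of the 10 genes, as for 43.4% of all genes tested. Csf1r was the exception, with Control replicate 2 highest. Knockout replicate 2 was the lowest knockout kidney for 7 of the 10 (40.2% of all genes tested) and the highest for the other 3, Cd68, Cd14 and Ctss (40.1% of all genes tested). In this kidney the log2 distance from the Control mean ran from -2.49 for Aif1 and -1.78 for Cx3cr1 to 3.04 for Ctss and 4.10 for Cd14. In knockout replicate 1 all 10 genes were above the Control mean, from 0.38 for Csf1r to 2.67 for Ctss. The summed normalized counts of the 10 genes were 2301, 2436 and 3756 in Control kidneys and 7629, 6774 and 6327 in knockout kidneys, a sum to which Lyz2 and Csf1r contributed most in the Control kidneys. With 1 library left out, the number of the 10 genes called higher was 4 without Control replicate 1 (4.15% of all genes tested), 4 without Control replicate 2 (4.29%) and 6 without Control replicate 3 (7.53%). It was 5 without knockout replicate 1 (9.56%), 7 without knockout replicate 2 (5.5%) and 4 without knockout replicate 3 (5.33%). Tyrobp was the gene lost where the number was 4. With Control replicate 3 and knockout replicate 2 both left out, a setting chosen after seeing the data, 9 of the 10 genes were higher and Aif1 was not among them, against 9.17% of all genes tested in that fit.

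**Figure D3:**
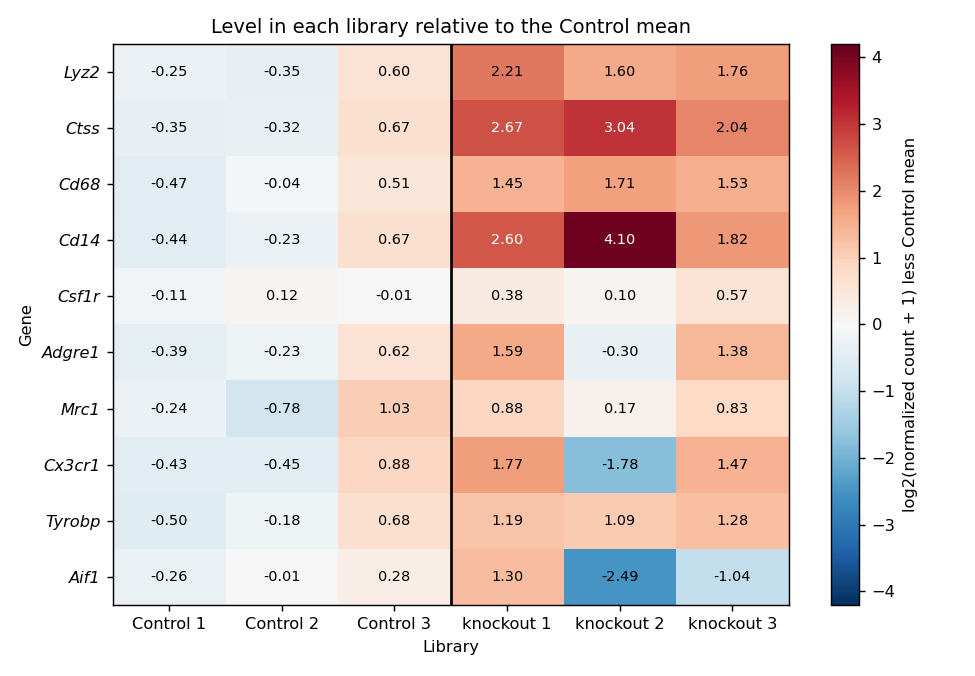
Log2(normalized count + 1) of each macrophage gene in each library, less the mean of the 3 Control libraries, as color and number (red above, blue below the Control mean). Knockout replicates 1 and 3 are above the Control mean except for Aif1 in replicate 3, while knockout replicate 2 combines the highest value of the plot (Cd14, 4.10) with the lowest (Aif1, -2.49).

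To ask whether the genes changed unequally, each was expressed as a ratio to Csf1r in the same library, which cancels the scaling between libraries. Csf1r itself changed little (log2 fold change 0.36), so these ratios largely repeat the changes given above and are no separate support. Its counts may include reads of Hmgxb3, as given above. The ratios of Cd14, Ctss, Lyz2, Cd68 and Tyrobp were higher in every knockout kidney than in every Control kidney, and 4.39% of all genes tested showed this. The mean log2 ratio was higher in knockout kidneys by 2.5 for Cd14, 2.24 for Ctss, 1.5 for Lyz2, 1.22 for Cd68 and 0.84 for Tyrobp. For each of these 5 the exact permutation test gave p = 0.1 (two-sided, n = 3 per group), the smallest that 3 against 3 libraries allow, and 0.18 adjusted over the 9 ratios, so none could pass. The differences for Adgre1 (0.54, exact p = 0.4), Mrc1 (0.28, exact p = 0.7), Cx3cr1 (0.13, exact p = 0.9) and Aif1 (-1.15, exact p = 0.4) overlapped between groups. Lyz2 was below Csf1r in all 3 Control kidneys and above it in all 3 knockout kidneys on this scale of normalized counts.

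**Figure D4:**
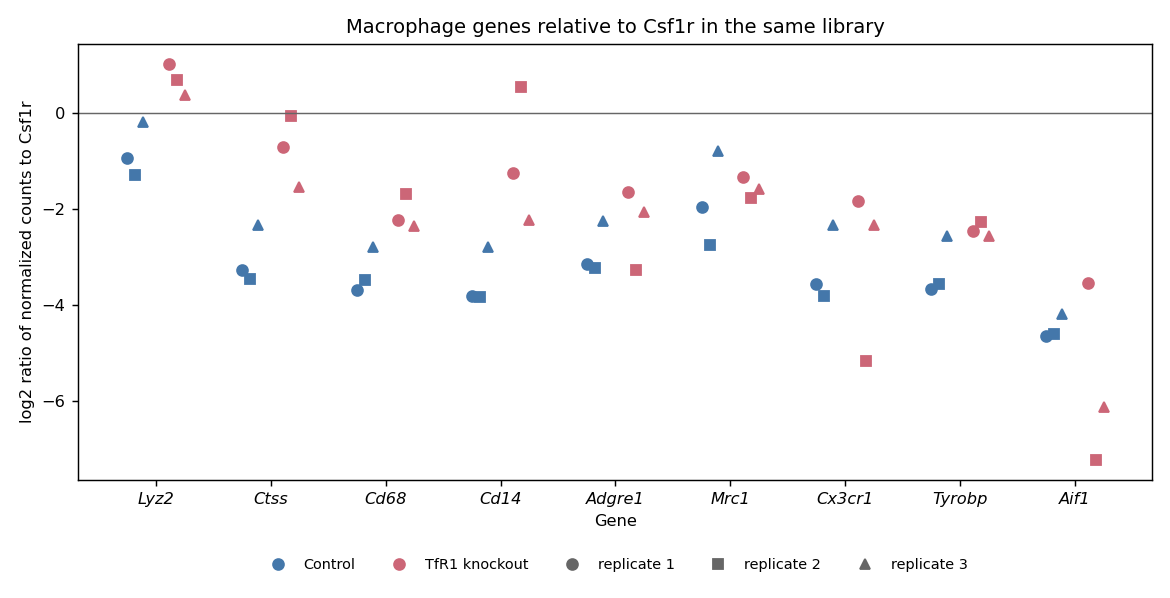
Log2 ratio of the normalized count of each macrophage gene to that of Csf1r in the same library, for Control (blue) and TfR1 knockout (red), with marker shape for the replicate number; 0 means equal counts. Lyz2, Ctss, Cd68, Cd14 and Tyrobp do not overlap between groups, and Cx3cr1 and Aif1 of knockout replicate 2 lie below all Control points.

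Levels of different genes were compared per length, as counts per kilobase of exon per 1000000 counted reads (mean ± SD, n = 3). In Control kidneys Lyz2 had the highest level at 26.1 ± 11.3, followed by Tyrobp at 11.3 ± 5.56 and Csf1r at 10.9 ± 0.82. Ctss (5.53 ± 2.67), Cd68 (4.77 ± 1.84), Cd14 (3.48 ± 1.68), Mrc1 (3.14 ± 2.24), Adgre1 (2.54 ± 1.13), Cx3cr1 (1.81 ± 1.13) and Aif1 (1.70 ± 0.39) came next. The length used was that of all exons of a gene joined. For Aif1 this was 1532 bases, against 875 for its longest transcript, so its place in the Control order depends on the length used. Among neighbours in the order given, the lowest Control library of Lyz2 was above the highest of Tyrobp, and likewise for Csf1r and Ctss. The ranges of the other neighbours over the Control libraries overlapped.

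In knockout kidneys the order by level per length was different below Lyz2, which stood at 85.0 ± 24.2. Ctss followed at 29.6 ± 7.59, Cd14 at 25.8 ± 18.6, Tyrobp at 22.4 ± 3.30, Csf1r at 13.2 ± 3.16 and Cd68 at 12.5 ± 0.49. Adgre1 (4.94 ± 2.90), Mrc1 (4.0 ± 1.29), Cx3cr1 (3.39 ± 2.65) and Aif1 (1.68 ± 2.06) were lowest. Ctss and Cd14, below Csf1r in the Control order, were above it by their means here, and Ctss exceeded Csf1r in each of the knockout libraries. The neighbours whose ranges over the knockout libraries did not overlap were Lyz2 and Ctss, Tyrobp and Csf1r, and Cd68 and Adgre1.

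The ligands of CSF1R and the factors of the macrophage lineage were examined next. Of 13 tested, 4 were higher and 0 lower by DESeq2 (7.74% and 7.18% of all genes tested), with a median log2 fold change of 0.16. Il34, a ligand of CSF1R that tubular epithelium produces, had 251, 245 and 215 normalized counts in Control kidneys and 754, 801 and 641 in knockout kidneys. It rose 3.09-fold with little spread (log2 fold change 1.63, SE 0.19, DESeq2 adjusted p 8.80e-16, edgeR adjusted p 0.00389). Csf1, the other ligand, had 336, 292 and 351 normalized counts in Control kidneys and 712, 202 and 442 in knockout kidneys. It did not pass (log2 fold change 0.47, DESeq2 adjusted p 0.488) and, like Cx3cr1, was below every Control kidney in knockout replicate 2. Without that kidney Csf1 passed (log2 fold change 0.83, DESeq2 adjusted p 0.0318). The transcription factors Runx1 (3.89-fold) and Cebpb (2.61-fold) rose, whereas Spi1, which encodes PU.1, did not pass (log2 fold change 0.54, DESeq2 adjusted p 0.507).

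Genes of resident macrophages and of clearance of dying cells had the highest median of the macrophage lists. Of 19 tested, 10 were higher and 1 was lower by DESeq2 (7.74% and 7.18% of all genes tested), with a median log2 fold change of 1.53. By edgeR 3 of 18 were higher (C1qa, C1qc and Marco), against 3.22% of all genes it tested. The subunits of complement C1q rose together, C1qa by 2.92-fold, C1qb by 2.75-fold and C1qc by 2.95-fold by DESeq2. C1qa had 252, 274 and 519 normalized counts in Control kidneys and 1293, 722 and 1030.1 in knockout kidneys. The haemoglobin scavenger receptor Cd163 rose 4.21-fold and the scavenger receptor Marco 9.61-fold, the latter from 12.4, 5.45 and 16.1 to 124, 58.9 and 140.0 normalized counts. Siglec1, a sialic acid receptor, rose 8.37-fold but did not pass without knockout replicate 1 (log2 fold change 1.76, DESeq2 adjusted p 0.0624). Mertk, a receptor for dying cells, did not pass (log2 fold change 0.47, DESeq2 adjusted p 0.253), although it did without knockout replicate 1 (0.69, adjusted p 0.0199). Its ligand Gas6 was the 1 lower gene (log2 fold change -0.77, DESeq2 adjusted p 0.0148), a call kept in 2 of the 6 fits with a library left out. That call was lost without Control replicates 1 (-0.76) or 2 (-0.77) and without knockout replicates 2 (-0.63) or 3 (-0.65).

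Markers of monocytes and the chemokines that attract them were counted next, beside 7.74% higher and 7.18% lower among all genes tested. Of 11 monocyte genes tested, 2 were higher (Plac8 and Nr4a1) and 1 lower (Ace), with a median log2 fold change of 0.21. By edgeR 0 of 9 passed. At an unadjusted p under 0.05 by edgeR, 3 were higher and 1 lower (12.8% and 13.0% of all genes it tested). Ace is also abundant in the brush border of proximal tubules, and it did not pass without Control replicate 2 (log2 fold change -1.29). Nr4a1 varied widely within groups, with 1236, 296 and 175 normalized counts in Control kidneys and 6336, 4162 and 1614 in knockout kidneys. Plac8 and Nr4a1 passed in 2 of the 6 fits with a library left out. Plac8 did not pass without Control replicates 1 (0.93) or 2 (0.96) or knockout replicates 1 (0.93) or 2 (1.2), and Nr4a1 not without Control replicates 2 (2.51) or 3 (2.39) or knockout replicates 1 (2.34) or 2 (2.80). Ccr2, the receptor that brings monocytes into tissue, had 46.2, 42.7 and 100.1 normalized counts in Control kidneys and 95.5, 15.4 and 38.8 in knockout kidneys, and its difference did not pass (log2 fold change -0.33, DESeq2 adjusted p 0.797). Of 9 chemoattractants tested, Ccl9 alone was higher (log2 fold change 1.63, DESeq2 adjusted p 0.00863; not without Control replicates 1 or 2, at 1.36 and 1.30, or knockout replicate 3, at 1.65), the median was 0.86, and edgeR passed 0 of 7 (1 higher at an unadjusted p under 0.05). Cx3cl1, the ligand of Cx3cr1, had 1024, 1093 and 1088 normalized counts in Control kidneys and 2466, 794.5 and 1613 in knockout kidneys. As for its receptor, knockout replicate 2 was below every Control kidney and the other two were above, and the difference did not pass (log2 fold change 0.60, DESeq2 adjusted p 0.29), although it did without knockout replicate 2 (0.94, adjusted p 0.00168).

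Partners of TYROBP were counted together with Fc receptors, their adaptor and the signaling proteins below these. Of 22 tested, 8 were higher and 0 lower by DESeq2 (7.74% and 7.18% of all genes tested), with a median log2 fold change of 0.89. By edgeR 2 of 22 were higher (Fcgr4 and Blnk), against 3.22% of all genes it tested. Fcgr3, a receptor for immunoglobulin G, rose 2.86-fold (DESeq2 adjusted p 0.00321) without overlap between groups. Fcer1g, which encodes the common adaptor of Fc receptors, rose 2.10-fold (DESeq2 adjusted p 0.0246). Its call was kept in 2 of the 6 fits with a library left out. It was lost without Control replicates 1 or 2, at log2 fold changes of 0.95 and 0.85, and without knockout replicates 1 or 2, at 1.06 and 0.91. Trem2, the best known partner of TYROBP, had low counts and did not pass (log2 fold change 0.56, DESeq2 adjusted p 0.6). Clec5a did not pass either (log2 fold change 1.44, DESeq2 adjusted p 0.254). Trem1, also at low counts, was higher by DESeq2 (7.56-fold, adjusted p 0.00729) and not by edgeR (adjusted p 0.0529). Syk, the kinase that binds the phosphorylated adaptors, had a log2 fold change of 0.02 (95% interval -0.50 to 0.55).

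Cd14 rose without its closest partners passing the test. Tlr4, the receptor to which CD14 delivers lipopolysaccharide, had 236, 200 and 487 normalized counts in Control kidneys and 382, 635 and 589 in knockout kidneys. It did not pass (log2 fold change 0.80, DESeq2 adjusted p 0.149), but without Control replicate 3 it did (1.29, adjusted p 3.74e-04). Ly96, which encodes the MD-2 subunit of that receptor, and Tlr2 had log2 fold changes of -0.23 and -0.01 and did not pass. Of the 27 genes of CD14 and Toll-like receptor signaling tested, 7 were higher and 0 lower (median log2 fold change 0.49). Of all genes tested, 7.74% were higher and 7.18% lower. By edgeR 3 of 25 were higher, against 3.22% of all genes it tested. The endosomal receptors Tlr8 (5.26-fold, DESeq2 adjusted p 4.95e-05) and Tlr13 (3.80-fold, DESeq2 adjusted p 0.00111) rose, as did the NF-kappaB inhibitor gene Nfkbia (2.23-fold) and the cytokine gene Il1b (6.41-fold, from 7.27 to 18.3 normalized counts in Control kidneys to 42.6 to 120.3 in knockout kidneys). Nfkbia, like Cd14, was highest in knockout replicate 2.

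Other lysosomal genes were counted beside the 3 among the 10. Of 21 tested, 3 were higher and 2 lower (7.74% and 7.18% of all genes tested), with a median log2 fold change of 0.10, and these genes are expressed in tubular epithelium as well. The higher genes were Gpnmb (22.9-fold, from 2.47, 1.82 and 7.53 normalized counts to 88.5, 97.2 and 73.8), Ctsd (2.84-fold) and Ctsc (2.33-fold), which encode a lysosomal membrane glycoprotein, cathepsin D and cathepsin C. All 3 passed by edgeR too. Ctsb, which encodes cathepsin B, had a log2 fold change of 0.10 (95% interval -0.20 to 0.40). Ctsl, which encodes cathepsin L, was lower (log2 fold change -0.77, DESeq2 adjusted p 0.0383), a call that was kept in 1 of the 6 fits with a library left out (without knockout replicate 2, with log2 fold changes of -1.09 to -0.59 over the 6).

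**Figure D5:**
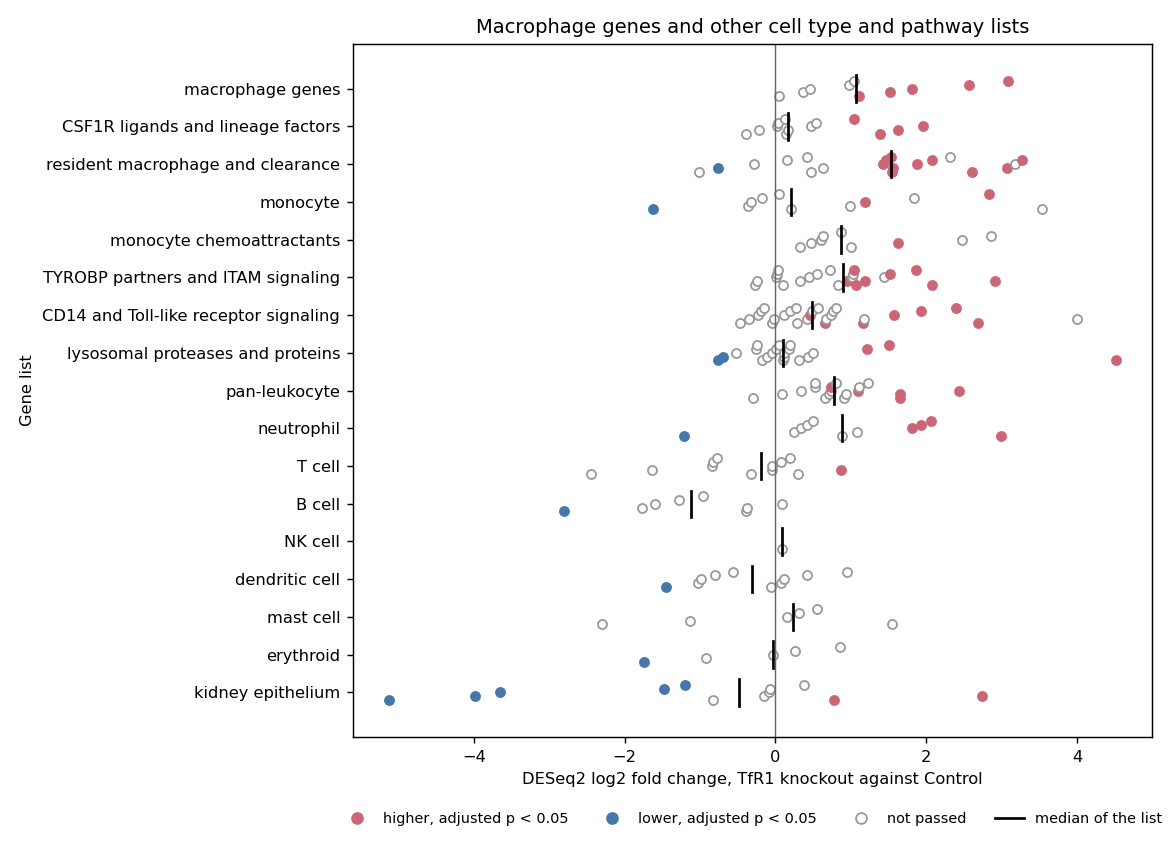
DESeq2 log2 fold change of each gene tested, by list, with filled red points for higher and filled blue points for lower genes (adjusted p under 0.05), open points for genes that did not pass and a black line at the median of the list. The median of the 10 macrophage genes is 1.07, that of resident macrophage and clearance genes 1.53 and that of B cell genes -1.12.

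Markers of other cells were counted beside the macrophage genes. Of 18 pan-leukocyte genes, 5 were higher and 0 lower (7.74% and 7.18% of all genes tested), with a median log2 fold change of 0.77. Among the higher genes were the integrin genes Itgam (5.42-fold) and Itgb2 (3.15-fold) and the oxidase gene Cybb (3.15-fold). By edgeR 2 of 18 were higher (Itgb2 and Itgam), against 3.22% of all genes it tested, and Cybb did not pass (edgeR adjusted p 0.0575). Ptprc, which encodes the common leukocyte antigen CD45, had 178, 154 and 309 normalized counts in Control kidneys and 431, 356 and 334 in knockout kidneys. Its values did not overlap, and it did not pass with all libraries (log2 fold change 0.81, DESeq2 adjusted p 0.0627) but did without Control replicate 3 (1.17, adjusted p 5.50e-05).

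Of 11 neutrophil genes tested, 4 were higher and 1 lower by DESeq2 (7.74% and 7.18% of all genes tested), with a median log2 fold change of 0.88. By edgeR 0 passed. At an unadjusted p under 0.05 by edgeR, 5 were higher and 1 lower (12.8% and 13.0% of all genes it tested). The 13 listed neutrophil genes summed to 272 to 675 normalized counts in Control kidneys and 454 to 1325 in knockout kidneys. Their sum was highest in knockout replicate 2, as for Cd14, whereas Lyz2 was lowest there among the knockout kidneys (1826, against 2791 and 2044). S100a8 had 26.4, 47.3 and 96.9 normalized counts in Control kidneys and 74.6, 345 and 228 in knockout kidneys, and was called higher by DESeq2 (log2 fold change 1.93, adjusted p 0.0151) in 2 of the 6 fits with a library left out. The call was lost without Control replicates 1 (1.58) or 2 (1.81) and without knockout replicates 2 (1.42) or 3 (1.89). Neutrophils express Cd14 and Lyz2, and their part in these results was not tested.

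Markers of lymphocytes, dendritic cells and mast cells were called at shares read here beside 7.74% higher and 7.18% lower among all genes tested. Of 12 T cell genes 1 was higher by DESeq2 (Lck) and 0 lower, with a median log2 fold change of -0.19. Of 8 B cell genes tested 0 were higher and 1 was lower (Ms4a1), with a median of -1.12, of 10 dendritic cell genes 0 were higher and 1 was lower (Batf3), with a median of -0.31, and of 6 mast cell genes 0 passed, with a median of 0.23. The Lck call was lost without Control replicates 1 (0.84) or 2 (0.76) and without knockout replicates 2 (0.78) or 3 (0.96). The Batf3 call was lost without Control replicates 1 (-1.5) or 2 (-1.41) and without knockout replicate 3 (-1.30), and the Ms4a1 call was kept in 1 of the 6 fits, that without knockout replicate 1 (-3.99). At an unadjusted p under 0.05 by DESeq2 (13.8% of all genes tested higher, 13.5% lower), 2 T cell, 2 B cell, 2 dendritic cell and 1 mast cell gene were lower, and the higher genes were the 1 T cell gene and 0 in the other 3 lists. By edgeR 0 genes of these lists passed. Unadjusted by edgeR, 1 T cell, 2 dendritic cell and 1 mast cell gene were lower (13.0% of all genes it tested). The higher gene was 1 T cell gene (12.8%). The B cell genes summed to 192 to 262 normalized counts in Control kidneys and 66.5 to 198 in knockout kidneys, and the mast cell genes to 126 to 178 and 51.2 to 264. Both sums were lowest in knockout replicate 2, the kidney in which Cx3cr1 and Aif1 were lowest, and whether these are related was not tested. Of 8 NK cell genes 1 was abundant enough to be tested and did not pass.

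Of 12 markers of kidney epithelium, 5 were lower and 2 higher by DESeq2 (7.18% and 7.74% of all genes tested), with a median log2 fold change of -0.49, and edgeR passed 3 as lower and 1 as higher. Umod of the thick ascending limb, Slc12a3 of the distal convoluted tubule and Slc5a2 of the proximal tubule fell, with log2 fold changes of -3.65, -3.98 and -5.12. The water channel gene Aqp2 of the collecting duct rose (log2 fold change 2.74, DESeq2 adjusted p 4.92e-08), as did the transcription factor gene Pax8 (0.78, DESeq2 adjusted p 0.0212). Pax8 did not pass without Control replicate 1 (0.82) or without knockout replicates 2 (0.65) or 3 (0.84). These 12 genes summed to 115176 to 231225 normalized counts in Control kidneys and 92328 to 134539.5 in knockout kidneys. The lowest Control sum was that of replicate 3, the Control kidney with the highest counts of 9 of the 10 macrophage genes. A smaller share of tubular RNA raises the share of all other RNA in a fixed number of reads, and its part in the macrophage result was not tested. Of 5 erythroid genes tested 0 were higher and 1 was lower (Slc4a1, also expressed in the collecting duct), and the globin genes Hbb-b1, Hbb-b2, Hba-a1 and Hba-a2 were listed at 0 in all 6 libraries.

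The genes most like the 10 in pattern were found by comparing log2(normalized count + 1), less the Control mean, over the 6 libraries with the median profile of the 10. That profile was -0.37, -0.23 and 0.64 in Control kidneys and 1.52, 0.63 and 1.42 in knockout kidneys. Among 12105 other genes, the nearest by root-mean-square difference were Csf2rb (0.11), Gpihbp1 (0.19), Ncf1 (0.21), Laptm5 (0.23) and Aldh1a2 (0.23). Csf2rb encodes a cytokine receptor subunit, Ncf1 a subunit of the phagocyte oxidase and Laptm5 a lysosomal protein of blood cells, while Gpihbp1 belongs to capillary endothelium and Aldh1a2 makes retinoic acid. Of the 10 genes themselves, Tyrobp (0.25) and Adgre1 (0.38) were nearest to their own median and Cd14 (1.49) and Aif1 (1.64) farthest from it. These distances describe the 6 libraries, which share the scaling and the spread given above.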

How the data were processed

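The authors sequenced poly-A libraries (single-end 100 bases), trimmed the reads with Trimmomatic, aligned them with TopHat2 2.0.11 to mm9, and deposited raw counts of uniquely aligned reads per gene made with HTSeq. The annotation and strand setting of the counting are not given in the sources used here. Reads with several matches are therefore in no count. The 10 genes and all gene lists were chosen with earlier results of these data known. Counts were tested with DESeq2 1.42.0 in R 4.3.3 (Wald test, median-ratio size factors, Benjamini-Hochberg adjustment over 16509 genes with a mean of at least 3.51 counts, 29 others without a p by outlier filtering). A gene passed at an adjusted p under 0.05. Alternatives were edgeR 4.0.16 (quasi-likelihood), limma 3.58.1 with voom, other scalings and filters, a null of at most 2-fold, a replicate block and leaving out each library. The code was tested on simulated data. Genes named beside the 10 were a preset list and the 3 passed genes per list with the largest fold changes and a mean of at least 50 normalized counts. Gas6, Ms4a1, Aqp2, Pax8, Nfkbia, Il1b, Fcgr4 and Blnk were named after their values were seen, as members of lists. The 5 genes of like pattern had a mean of at least 100 normalized counts. Positions and lengths came from GENCODE for mm9.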

Additional observations from a re-analysis of the deposited data

How the results depend on the processing

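Of the 10 macrophage genes, 4 passed as higher by edgeR and with total-count scaling, 3 by limma-voom (3 by 2-fold too) and 2 (Cd14 and Ctss, 2 by 2-fold) against a null of at most 2-fold. Total-count scaling moved the median of all genes to -0.098. Leaving out 1 library gave 4 to 7 higher genes, 0 to 1 lower (Aif1 without knockout replicate 1) and a median of 0.86 to 1.54. Without Control replicate 3 and knockout replicate 2, chosen after seeing the data, 9 were higher, 8 by 2-fold, with a median of 1.78. Of the 205 genes tested in the other lists, 47 were higher and 13 lower (7.74% and 7.18% of all genes tested). By edgeR 17 and 4 of 185 were higher and lower (3.22% and 2.8% of all genes it tested). The counts were 22 and 4 by limma-voom and 3 and 3 with the 2-fold null. With a library left out they were 26 to 59 and 6 to 17. Same-numbered libraries did not deviate together (r -0.038, 0.055 and 0.090 across genes), so the numbers were not taken as a pairing. With the replicate block 5 of the 10 were higher and 46 and 11 of the other genes were higher and lower. Among the genes named, the block made Tlr4 (log2 fold change 0.87, adjusted p 0.0357) and Ptprc (0.87, adjusted p 0.0472) pass by DESeq2 and lost Lck (0.87, adjusted p 0.125) and Ms4a1 (-3.23, adjusted p 0.0835). The direction reversed, with the main log2 fold change first, for Ccl2 (1.01, and -0.089 to 1.8 with a library left out), Csf1 (0.47, and -0.013 to 0.83) and others nearer 0, namely Aif1 (-0.70 by limma-voom, -0.0084 with total-count scaling, -0.77 with the block, -1.63 to 0.56 with a library left out), Ccr2 (-1.20 to 0.17, and 0.59 without both libraries), Tlr2 (-0.15 to 0.14, and 0.21), Ctsb (-0.015 with total-count scaling, and -0.034), Syk (-0.073 with total-count and -0.027 with upper-quartile scaling, -0.13 to 0.15), Tfrc (-0.095 to 0.30), and the log2 ratios to Csf1r of Cx3cr1 (-0.51 to 1.15) and Mrc1 (-0.18 to 0.80). Of 160 results by gene and setting for the 10 genes, 138 kept direction and call, 10 lost the call, 7 gained it and 5 reversed. The cause was not tested.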
